A study of Mus musculus with 7 samples.

Results

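The genes described here copy DNA: 53 genes for origin licensing, helicase activation, priming, DNA synthesis, fork protection, chromatin assembly and nucleotide supply, out of 21928 genes in the tables. They were listed by function, with earlier results of these data known, and sorted into 12 steps of replication, without the MCM genes. Low genes were removed by asking for a TPM of 1 or more in 3 or more of the 7 libraries, and all 53 were kept, among 13630 genes in all.

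Before a cell copies its DNA, the origin recognition complex marks start sites and loads an inactive helicase with the help of CDC6 and CDT1. A kinase and the factors CDC45 and GINS then activate that helicase, polymerase alpha-primase lays down primers, and polymerases delta and epsilon extend them, held on the template by the PCNA ring. Male germ cells pass through their last DNA replication as preleptotene spermatocytes, just before meiotic prophase, so this gene set is in use at the mitosis-to-meiosis transition that MEIOC affects.

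RNA was sequenced from testes of 4 wild-type pups and 3 pups without *Meioc*, a germ cell gene of the mitosis-to-meiosis transition. All pups were C57BL/6N males, with 1 library per pup from 1.5 testes. Both groups received WIN 18,446, which blocks retinoic acid synthesis, at 0.1 mg per g body weight on each day from P2 to P8, and retinoic acid at 0.0125 mg per g on P9, and testes were taken 6.75 days after that. The knockout animals, labelled *Meioc* KO and called *Meioc*-null here, carry the null allele tm1.1Dpc, which is not limited to a cell type or a stage. Whole testes were used, with Sertoli, Leydig and other somatic cells present beside the synchronized germ cells.

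The libraries held between 12537852 and 20552702 estimated counts. *Meioc* itself had 468, 660, 664 and 720 CPM (counts scaled to library size with TMM factors) in wild-type replicates 1 to 4 and 400, 300 and 413 CPM in *Meioc*-null replicates 1 to 3, a log2 fold change of 0.76 ± 0.16 (SE, edgeR adjusted p = 0.021). Reads remain in the null libraries, and the tables do not separate reads by exon, so the deleted part could not be examined. Each log2 fold change divides wild type by *Meioc*-null. A gene was called when edgeR's quasi-likelihood p, adjusted over all 13630 genes by the Benjamini-Hochberg method, was under 0.05.

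Replication genes were more abundant in wild-type than in *Meioc*-null testes when libraries were scaled to all genes. This direction turned for 35 of the 53 when libraries were scaled to 5 germ cell markers, which themselves differed between the groups. Under scaling to all genes, the log2 fold changes of these markers were 0.24 (*Ddx4*), 0.36 (*Mael*), 0.58 (*Dazl*), 1.09 (*Sycp3*) and 1.27 (*Tex101*). Scaling to other choices of germ cell markers was not tested. Under scaling to all genes, 25 of the 53 passed the test with a higher level in wild type (47.2%) and 0 with a lower level. The shares over all genes tested were 7.77% and 3.33% (11.1% in either direction). A log2 fold change above 0 was found for 48 of the 53, against 49.1% of all genes. With limma on log2(TPM + 1) instead of counts, 19 of the 53 lay below 0, 0 of them among the 25. The median was 0.41, against -0.0065 over all genes, and the called genes ranged from 0.37 (*Orc6*) to 1.40 (*Dscc1*). The 4 largest, each at least 2-fold, were *Dscc1*, *Rrm2*, *Prim1* and *Gins3*. With an unadjusted p under 0.05 there were 35 genes, all higher in wild type and none lower, against 4133 of all 13630 genes in either direction. DESeq2 called 28 higher and 0 lower, among 2331 genes called in all. Of the 25, *Orc1*, *Cdc45*, *Gins1*, *Gins2*, *Gins3*, *Prim1*, *Pold1*, *Pole*, *Pcna*, *Dscc1*, *Lig1*, *Tipin* and *Rrm2* kept a log2 fold change above 0 under germ cell scaling, and the other 12 did not. In bulk testes, fewer replicating cells and less of each RNA per cell cannot be told apart.

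**Figure D1:**
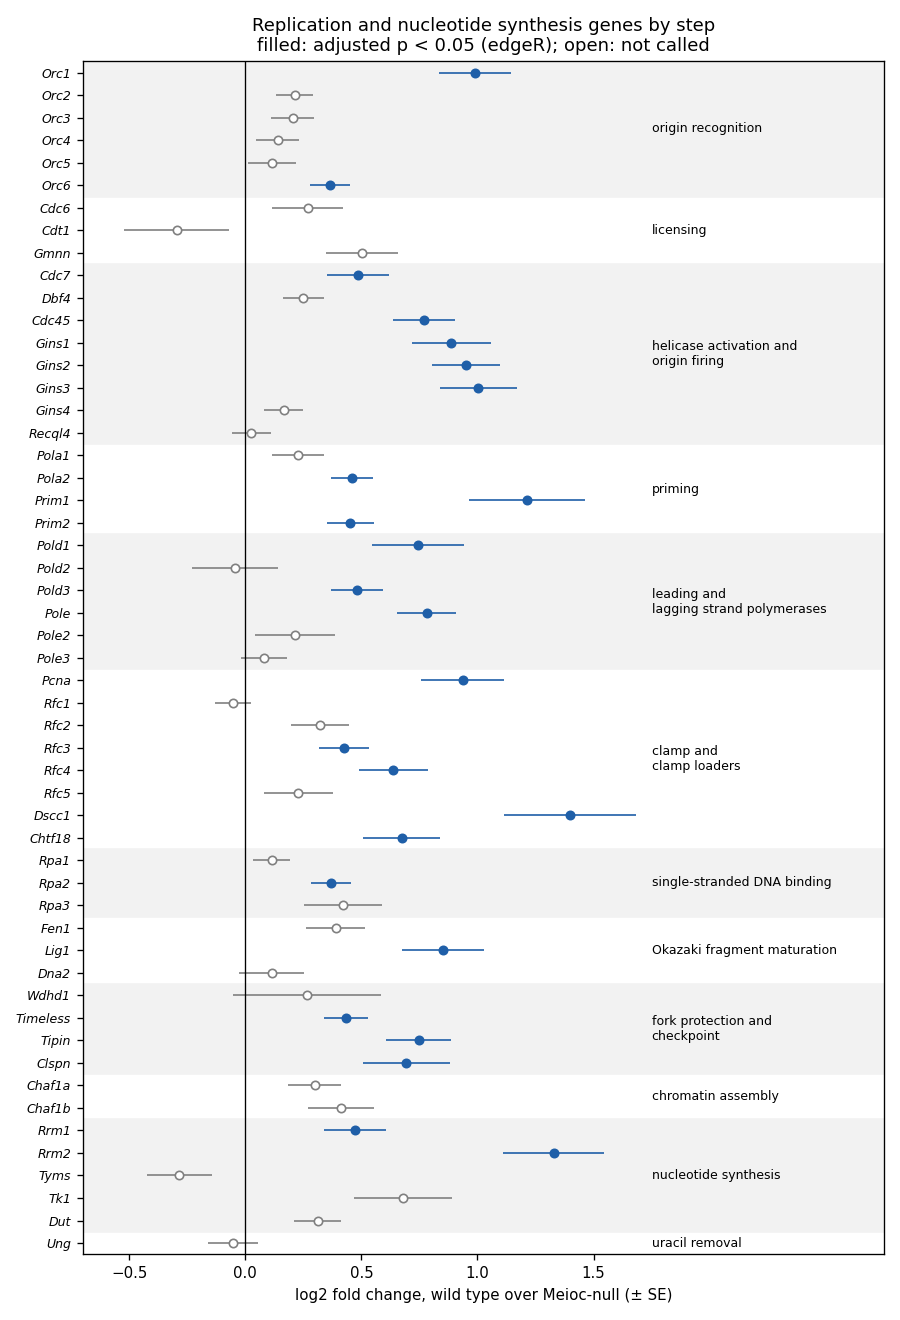
Log2 fold change of each of the 53 genes, wild type over *Meioc*-null, with its standard error, grouped by step of replication. Filled points are the 25 genes called by edgeR under scaling to all genes, where 48 of 53 points lie right of 0, whereas 40 of 53 lie left of 0 under scaling to germ cell markers.

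The 27 genes with every wild-type library above every *Meioc*-null library included 22 of the 25 called genes, and 0 genes had every wild-type library below, against 15.4% and 10.8% of all genes tested. Wild-type replicate 1 was the wild-type library closest to the null group. It was the lowest wild-type library for 24 of the 25 called genes and for 36 of all 53. *Meioc*-null replicate 1 was the highest null library for 41 of 53 genes and *Meioc*-null replicate 2 the lowest for 38. On average over the 53 genes, log2 CPM deviated from the midpoint of both group means by 0.04 in wild-type replicate 1. The deviation was 0.30, 0.28 and 0.26 in wild-type replicates 2 to 4, and -0.07, -0.35 and -0.24 in *Meioc*-null replicates 1 to 3. Summed over the 53 genes, CPM was 3838 ± 409 in wild type (SD, n = 4, from 3225 to 4051) and 2742 ± 236 in *Meioc*-null testes (n = 3, from 2519 to 2989), a ratio of 1.40.

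The number of calls depended on single libraries, and this was not limited to the replication genes. Over all genes tested, between 131 and 2172 were called when a library was left out. Among the replication genes the number was 30 without wild-type replicate 1 or without *Meioc*-null replicate 1. It was 6 without wild-type replicate 2 or 3 and 9 without wild-type replicate 4. It was 7 without *Meioc*-null replicate 2 and 0 without *Meioc*-null replicate 3. In that last fit 32 genes still had an unadjusted p under 0.05 and a higher level in wild type, and the adjusted p of the 25 called genes ran from 0.056 to 0.13. The share of all genes at that unadjusted p was not counted in that fit. The log2 fold changes of all 25 stayed positive in each of the 7 fits that left out a library. These genes were picked for a positive value in the same libraries, so their sign says little of stability. The same count was not made over other called genes. *Orc1*, *Cdc45*, *Gins2*, *Gins3*, *Pole* and *Rrm2* were called in 6 of these 7 fits, and no gene was called in all of them.

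**Figure D2:**
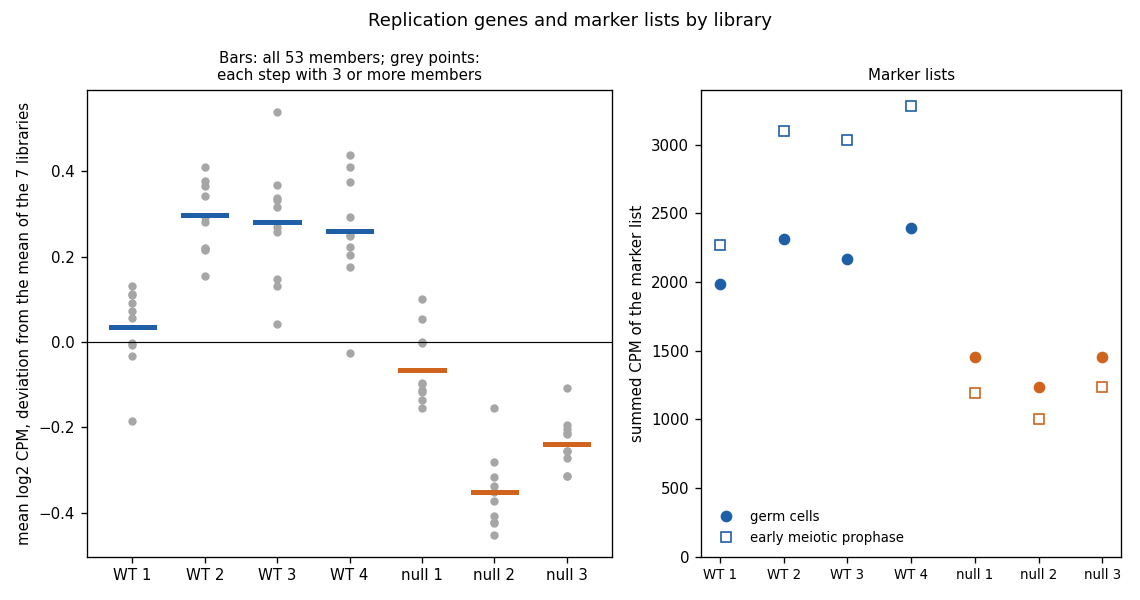
Left, mean log2 CPM of the replication genes in each library, for all 53 (bars) and for each step with 3 or more genes (points). It is drawn as the deviation from the midpoint of both group means, which the axis names the mean of the 7 libraries. Right, summed CPM of the germ cell and early meiotic prophase marker lists, which separate the groups, from 1986 to 2394 against 1233 to 1455 for germ cells; when libraries are scaled to the germ cell markers, the difference in the replication genes turns for most of them.

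Marker lists of germ cell types differed between the same groups to unequal degrees. Of 5 germ cell markers, 4 were called higher in wild type, led by *Tex101* at 1.27 ± 0.15, with a summed level of 1986 to 2394 CPM in wild-type testes and 1233 to 1455 CPM in *Meioc*-null testes. Of 8 early meiotic prophase markers, 7 were called higher, led by *Smc1b*, a meiotic cohesin subunit, at 1.73 ± 0.19, with 2266 to 3281 against 1001 to 1235 CPM. Of 6 tested markers of undifferentiated spermatogonia, 2 were called lower and 0 higher, led by *Zbtb16* at -0.86 ± 0.18. The other 4 were not called, and 1 of them, *Id4*, lay above 0 at 0.15 ± 0.10. The list summed to 127 to 151 CPM in wild-type testes and 168 to 270 CPM in *Meioc*-null testes. *Zbtb16* held a large part of that difference, with means of 64.6 against 117 CPM, where the whole list averaged 141 against 212 CPM. Among 5 markers of differentiating spermatogonia only *Kit* was called, higher in wild type, and the list summed to 365 to 452 against 323 to 349 CPM. *Kit* alone averaged 223 against 152 CPM. With each gene weighted equally, the list overlapped: its mean log2 deviation ran from -0.149 to 0.232 in wild type and from -0.147 to -0.053 in *Meioc*-null testes. The part of these cell types in the replication result was not tested.

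Somatic lists overlapped between the groups. Sertoli cell markers summed to 917 to 990 CPM in wild-type testes and 952 to 999 CPM in *Meioc*-null testes, with 1 of 6 called (*Gata4*, -0.33 ± 0.08). Peritubular myoid markers summed to 508 to 580 against 487 to 567 CPM, with 1 of 4 called (*Des*, -0.37 ± 0.10). Leydig cell markers summed to 252 to 398 against 300 to 530 CPM, endothelial markers to 62.9 to 79.1 against 67.4 to 84.8 CPM, and macrophage markers to 66.6 to 74.3 against 72.3 to 88.2 CPM. None of the 14 genes in these 3 lists was called by edgeR, where 4 had an unadjusted p under 0.05, against 4133 of all 13630 genes. Most late germ cell markers were near 0: *Prm1*, a sperm chromatin gene, was at 0 in every library, and *Acrv1*, *Pgk2*, *Ldhc* and *Tnp1* stayed under 0.5 CPM. *Piwil1*, a piRNA pathway gene and the only marker of that list to pass the filter, had 2.32 to 4.27 CPM in wild type and 4.30 to 6.88 CPM in *Meioc*-null testes, without overlap, and was not called at -0.70 ± 0.26 (adjusted p = 0.11).

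Genes of cell division outside the replication set split. *Top2a*, which untangles DNA, and *Mki67*, a nuclear protein of cycling cells, were called higher in wild type, *Top2a* at 1.68 ± 0.32. *Aurkb* and *Ccnb1*, which act in mitosis, were called lower, *Aurkb* at -0.74 ± 0.18.

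Promoters of the set were searched for letters known from E2F factors, which drive many replication genes at the start of S phase. RefSeq promoters (GRCm38.p6, from 250 bases before to 50 bases after each start) were at hand for 43 of the 53 genes, all but *Gins1*, *Gins2*, *Gins4*, *Gmnn*, *Recql4*, *Prim2*, *Pole*, *Rfc2*, *Dscc1* and *Tipin*. Either TTTCCCGC or TTTGGCGC occurred on either strand in 9 of these 43 genes (20.9%), and in 486 of 27025 genes in the whole promoter table (1.8%). Of the genes called higher 4 of 19 (21.1%) held either, all with TTTCCCGC, and of the genes not called 5 of 24 (20.8%), 2 with TTTCCCGC (8.33%) and 3 with TTTGGCGC (12.5%). These shares were not tested against each other. The 9 sites are printed to show these letters in the genes that hold them, and the other 34 genes have no match in this window. Each is written on the gene's strand, 5′ to 3′, with the match in capitals, as TTTCCCGC or TTTGGCGC or as its reverse complement, GCGGGAAA or GCGCCAAA.
*Cdc6* (chr11:98908003-98908030): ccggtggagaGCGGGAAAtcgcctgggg
*Gins3* (chr8:95633508-95633535): cgagtgcggcGCGGGAAAgcgagtttga
*Orc3* (chr4:34614966-34614993): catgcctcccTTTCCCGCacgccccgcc
*Pold1* (chr7:44548766-44548786): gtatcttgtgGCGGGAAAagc
*Pold3* (chr7:100121468-100121495): agcgaagctgTTTCCCGCcggcgggagc
*Rfc3* (chr5:151651191-151651218): tttcgcgctcGCGGGAAAactctactgt
*Cdt1* (chr8:122568037-122568064): gaactaccttTTTGGCGCcatggcgcaa
*Pola1* (chrX:93632276-93632303): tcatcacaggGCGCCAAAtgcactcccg
*Pole2* (chr12:69228163-69228190): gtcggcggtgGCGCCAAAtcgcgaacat

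*Cdc6* and *Pola1* carry the letters 138 bases before the start, and the other 7 genes within 50 bases of it on either side. Of these 9 genes, *Gins3*, *Pold1*, *Pold3* and *Rfc3* were called higher in wild type, with log2 fold changes of 1.00, 0.74, 0.48 and 0.43. The letters CNCCTCAG, known from STRA8, a transcription factor of meiotic initiation, occurred in 2 of the 43 genes (4.65%), *Chaf1a* and *Gins3*, and in 9.12% of all genes in the promoter table. Their *Gins3* site lies 7 bases before the start, downstream of the E2F-type site. A match is a stretch of letters and was not tested for binding.

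Origin recognition was uneven among its 6 subunits, and under germ cell scaling all but *Orc1* fell below 0. *Orc1*, the subunit that comes and goes with the cell cycle, had 42.0, 58.0, 60.1 and 65.8 CPM in wild-type testes and 32.4, 25.0 and 27.9 CPM in *Meioc*-null testes. The groups did not overlap, and the log2 fold change was 0.99 ± 0.15 (adjusted p = 0.011). *Orc6* had 54.4, 59.0, 58.5 and 60.1 against 47.7, 40.4 and 46.8 CPM, a smaller difference of 0.37 ± 0.09 (adjusted p = 0.027). *Orc2*, *Orc3*, *Orc4* and *Orc5*, which form the stable core with *Orc1* bound to it, had log2 fold changes of 0.21, 0.20, 0.14 and 0.12 and were not called. *Orc5*, nearest to 0, had 37.6, 35.8, 29.6 and 36.8 against 32.0, 30.4 and 34.3 CPM, and its groups overlapped. Per length, *Orc1* was also the scarcest subunit, at 28.8 ± 3.91 TPM in wild type (SD, n = 4), beside 34.4 ± 4.88 TPM for *Orc5* and 116 ± 3.13 TPM for *Orc6*, and the ranges of *Orc1* and *Orc5* overlapped.

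None of the 3 licensing genes was called by edgeR, with 1 at an unadjusted p under 0.05. *Cdc6*, which loads the helicase with *Cdt1*, had 34.5, 37.7, 32.8 and 29.9 CPM in wild-type testes and 35.1, 22.1 and 26.6 CPM in *Meioc*-null testes, so that *Meioc*-null replicate 1 lay within the wild-type range. The log2 fold change of *Cdc6* was 0.27 ± 0.15 (adjusted p = 0.26) and that of *Cdt1* was -0.29 ± 0.23 (adjusted p = 0.41). *Gmnn*, geminin, the inhibitor of CDT1, was at 0.50 ± 0.15, which missed the threshold in edgeR (adjusted p = 0.064) and passed it in DESeq2 (adjusted p = 0.025). *Cdt1* was the scarcest of all 53 genes per length, at 4.15 ± 1.18 TPM in wild type.

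Helicase activation had the highest median of the steps with more than 4 genes, 0.63, and 5 of its 8 genes were called higher, of which *Cdc7* turned under germ cell scaling. *Gins1*, *Gins2* and *Gins3* of the GINS complex, which with CDC45 turns the MCM ring into a working helicase, had log2 fold changes of 0.89 ± 0.17, 0.95 ± 0.15 and 1.00 ± 0.17. *Gins3* had 25.8, 36.3, 40.1 and 40.7 CPM in wild-type testes and 20.2, 17.4 and 15.9 CPM in *Meioc*-null testes. *Gins2* had 30.8, 37.7, 38.5 and 38.7 against 23.1, 15.4 and 17.9 CPM. In both genes every wild-type library lay above every null library. *Gins4*, the remaining subunit, was at 0.17 ± 0.08 and was not called (adjusted p = 0.21), and the difference between the subunits was not tested. Per length it was also the most abundant, at 62.5 ± 3.17 TPM in wild type against 25.9 ± 2.35, 10.1 ± 0.579 and 24.9 ± 3.33 TPM for *Gins1*, *Gins2* and *Gins3*.

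*Cdc45* was called at 0.77 ± 0.13 (adjusted p = 0.014) and *Cdc7*, the firing kinase, at 0.48 ± 0.13 (adjusted p = 0.046). *Dbf4*, the activating subunit of that kinase, was at 0.25 ± 0.09 and was not called (adjusted p = 0.094), although its groups did not overlap. *Recql4*, a helicase that acts at origins, was nearest to 0 at 0.03 ± 0.08, with 34.8, 32.5, 36.8 and 32.5 CPM in wild-type testes and 34.0, 32.8 and 33.8 CPM in *Meioc*-null testes.

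**Figure D3:**
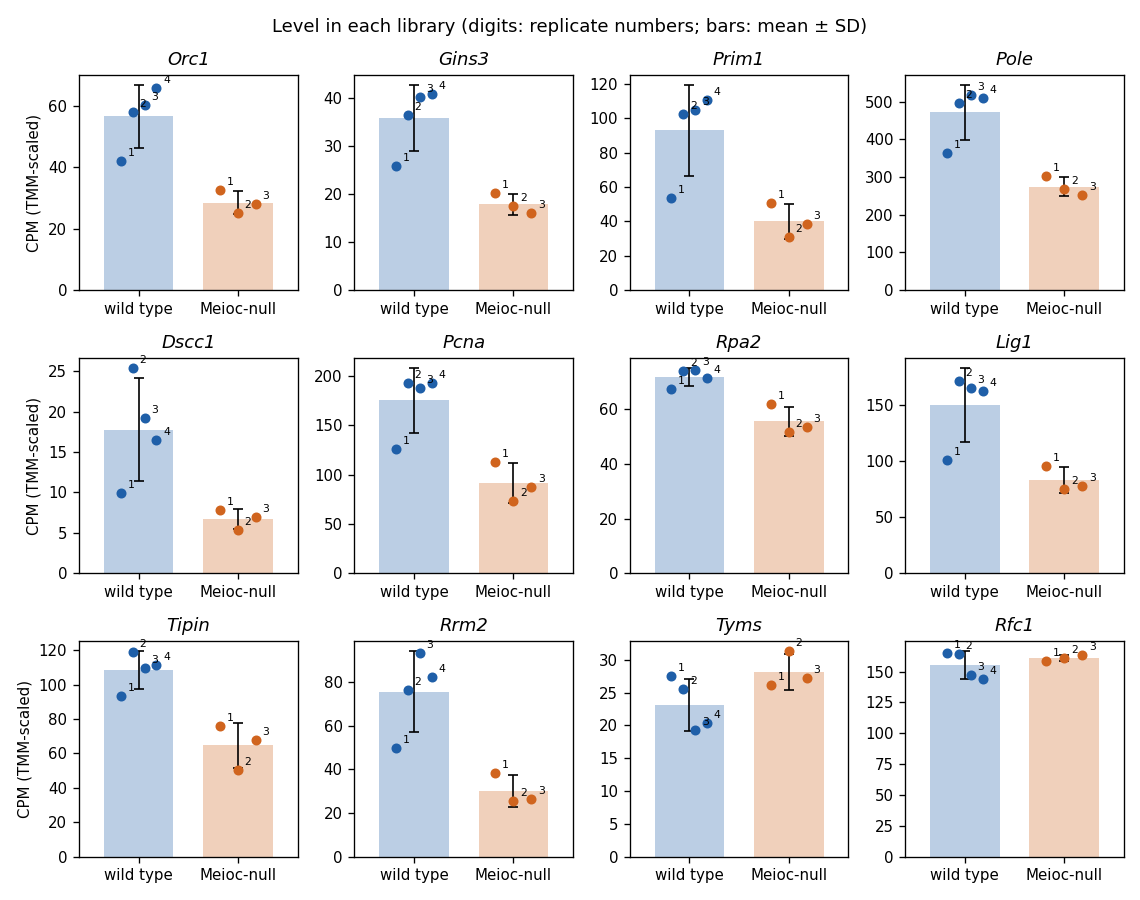
CPM after TMM scaling in each library for 12 genes, with the replicate number beside each point and bars for the mean ± SD of 4 wild-type and 3 *Meioc*-null libraries. *Tyms* and *Rfc1* overlap between the groups and the other 10 do not; of those 10, *Rpa2* turns below the null level when libraries are scaled to germ cell markers.

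Priming was led by the catalytic primase subunit, with 3 of 4 genes called higher, of which *Pola2* and *Prim2* turned under germ cell scaling. *Prim1* had 53.7, 102, 105 and 111 CPM in wild-type testes and 50.8, 30.8 and 38.5 CPM in *Meioc*-null testes, a log2 fold change of 1.21 ± 0.25 (adjusted p = 0.020). Wild-type replicate 1 stood close to *Meioc*-null replicate 1, and the other wild-type libraries held about the same level as each other. *Prim2*, the large primase subunit, was called at 0.45 ± 0.10 and *Pola2*, the accessory subunit of polymerase alpha, at 0.46 ± 0.09. *Pola2* varied little within wild type, with 43.5, 47.3, 47.5 and 48.0 CPM, and had 35.9, 30.1 and 35.5 CPM in *Meioc*-null testes. *Pola1*, the catalytic subunit of polymerase alpha, was nearest to 0 at 0.23 ± 0.11 (adjusted p = 0.21), with 52.3, 68.1, 67.4 and 73.6 against 53.6, 58.2 and 56.0 CPM.

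The catalytic subunits of both replicative polymerases were called higher in wild type and stayed above 0 under every scaling. Under germ cell scaling they were close to 0, at 0.060 (*Pole*) and 0.019 (*Pold1*), and neither was called. *Pole*, the catalytic subunit of the leading strand polymerase epsilon, had 364, 495, 519 and 508 CPM in wild-type testes and 302, 268 and 253 CPM in *Meioc*-null testes, with no overlap and a log2 fold change of 0.78 ± 0.13 (adjusted p = 0.012). *Pold1*, the catalytic subunit of the lagging strand polymerase delta, had 65.8, 109, 129 and 113 against 70.6, 61.1 and 54.9 CPM. Wild-type replicate 1 fell inside the null range there, and the log2 fold change was 0.74 ± 0.20 (adjusted p = 0.042). *Pold3*, an accessory subunit, was called at 0.48 ± 0.11.

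The accessory subunits *Pold2*, *Pole2* and *Pole3* were not called, with log2 fold changes of -0.05, 0.21 and 0.08. *Pold2* had 33.3, 26.6, 23.5 and 21.7 CPM in wild-type testes and 34.4, 21.9 and 24.7 CPM in *Meioc*-null testes, with its highest values in replicate 1 of each group. Per length in wild type, *Pole* stood at 112 ± 11.4 TPM beside 15.2 ± 1.95 TPM for *Pole2*, and *Pold3* at 88.8 ± 7.33 TPM beside 31.1 ± 6.84 TPM for *Pold1*.

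**Figure D4:**
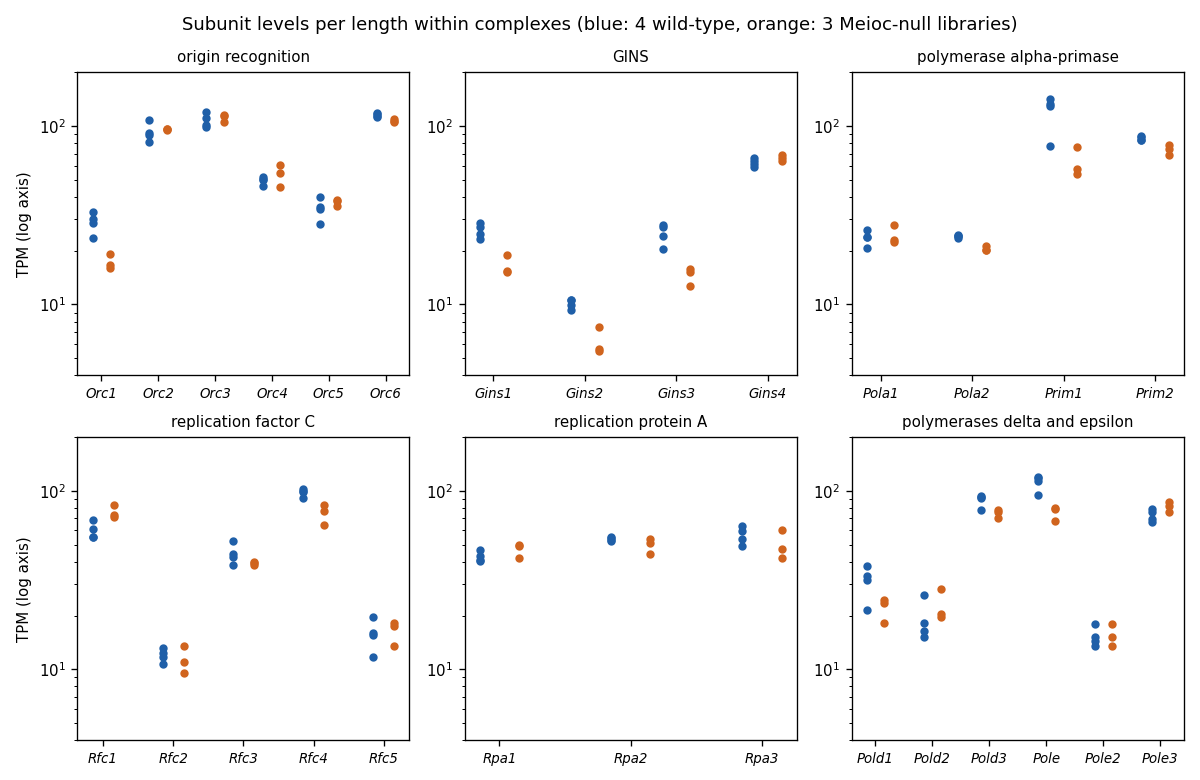
TPM, a level per transcript length, of the subunits of 6 replication complexes on a log axis, with 1 point for each of 4 wild-type (blue) and 3 *Meioc*-null (orange) libraries. *Gins4* and *Orc2* to *Orc5* overlap between the groups, whereas the points of *Orc1*, *Gins1*, *Gins2*, *Gins3* and *Pole* are separate. TPM is shown for levels between genes, and the main tests were made on counts.

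Among the clamp and clamp loaders 5 of 8 genes were called higher, including the largest change of the set, and *Rfc3*, *Rfc4* and *Chtf18* of these turned under germ cell scaling. *Dscc1*, a subunit of the alternative loader that also serves sister chromatid cohesion, had 9.96, 25.4, 19.2 and 16.5 CPM in wild-type testes and 7.85, 5.36 and 6.91 CPM in *Meioc*-null testes. Its groups did not overlap, and its log2 fold change of 1.40 ± 0.28 (adjusted p = 0.019) came with a wide spread among the wild-type libraries. *Chtf18*, the large subunit of the same loader, was called at 0.67 ± 0.16. *Pcna*, the sliding clamp, had 126, 193, 188 and 193 against 113, 73.8 and 87.8 CPM, a log2 fold change of 0.94 ± 0.18 (adjusted p = 0.017). It was the most abundant gene of the set per length after *Tipin*, at 249 ± 35.0 TPM in wild type. Of its 31-base words 38% also occur in other annotated transcripts, among them the pseudogene *Pcna-ps2*, so its level is uncertain to the extent that kallisto divided such reads.

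The main clamp loader, replication factor C, was mixed. *Rfc3* and *Rfc4* were called at 0.43 ± 0.11 and 0.64 ± 0.15, and *Rfc2* and *Rfc5* had log2 fold changes of 0.32 and 0.23 and were not called. *Rfc1*, the large subunit that gives this loader its identity, was at -0.05 ± 0.08 (adjusted p = 0.67), with 165, 165, 147 and 144 CPM in wild-type testes and 158, 161 and 164 CPM in *Meioc*-null testes.

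Single-stranded DNA exposed at forks is coated by replication protein A. Its middle subunit gene *Rpa2* had 67.4, 73.7, 74.5 and 71.4 CPM in wild-type testes and 61.7, 51.7 and 53.4 CPM in *Meioc*-null testes, a small difference of 0.37 ± 0.09 on the log2 scale without overlap (adjusted p = 0.027). *Rpa1*, the large subunit, had 90.5, 98.0, 87.9 and 89.7 against 92.2, 80.9 and 80.7 CPM and was not called at 0.11 ± 0.08 (adjusted p = 0.37). *Rpa3* was at 0.42 ± 0.17 (adjusted p = 0.12). The 3 subunits stood at similar levels per length in wild type, 42.6 ± 2.77, 53.8 ± 1.29 and 56.5 ± 6.27 TPM.

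Okazaki fragments are trimmed by FEN1 and DNA2 and sealed by DNA ligase 1. *Lig1* had 102, 172, 166 and 163 CPM in wild-type testes and 96.2, 75.6 and 78.0 CPM in *Meioc*-null testes, with a log2 fold change of 0.85 ± 0.18 (adjusted p = 0.020). As for *Prim1*, wild-type replicate 1 lay just above *Meioc*-null replicate 1. *Fen1* was at 0.39 ± 0.13, not called by edgeR (adjusted p = 0.076) and called by DESeq2 (adjusted p = 0.044). *Dna2* was nearest to 0 at 0.11 ± 0.14, with 21.3, 16.0, 16.0 and 17.8 against 18.6, 15.9 and 14.6 CPM.

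Fork protection had 3 of 4 genes called higher, of which *Timeless* and *Clspn* turned under germ cell scaling. *Tipin*, whose product pairs with TIMELESS to hold the fork together, had 93.6, 119, 110 and 112 CPM in wild-type testes and 75.7, 50.2 and 68.1 CPM in *Meioc*-null testes, a log2 fold change of 0.75 ± 0.14 (adjusted p = 0.017). Its partner *Timeless* was called at 0.43 ± 0.09 (adjusted p = 0.023). *Clspn*, claspin, which carries the checkpoint signal to CHK1, had 80.5, 127, 137 and 154 against 80.7, 69.3 and 81.3 CPM. Its wild-type replicate 1 lay within the null range, and the log2 fold change was 0.69 ± 0.19 (adjusted p = 0.044).

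*Wdhd1*, which couples the helicase to polymerase alpha, was the least reproducible gene of the set, with 43.7, 58.1, 137 and 95.3 CPM in wild-type testes and 73.8, 63.6 and 71.0 CPM in *Meioc*-null testes. The log2 fold change of 0.27 ± 0.32 (adjusted p = 0.61) has the largest standard error of the 53. Its words are shared to 5.64% with other transcripts, mainly a pseudogene.

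Chromatin assembly behind the fork is represented by 2 subunits of chromatin assembly factor 1, which deposits new histones. Neither was called by edgeR, though both had an unadjusted p under 0.05, and DESeq2 called neither. *Chaf1a* had 37.7, 37.6, 38.6 and 30.3 CPM in wild-type testes and 30.2, 31.7 and 26.0 CPM in *Meioc*-null testes, a log2 fold change of 0.30 ± 0.11 (adjusted p = 0.11). *Chaf1b* was at 0.41 ± 0.14 (adjusted p = 0.088).

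Nucleotide synthesis divided by enzyme. Ribonucleotide reductase, the enzyme that makes deoxyribonucleotides, had both listed subunits called higher, of which *Rrm1* turned under germ cell scaling. *Rrm2*, the small subunit whose level is tied to S phase, had 49.9, 76.6, 93.6 and 82.2 CPM in wild-type testes and 38.4, 25.5 and 26.3 CPM in *Meioc*-null testes. That is a 2.51-fold difference and a log2 fold change of 1.33 ± 0.22 (adjusted p = 0.012), with no overlap. *Rrm1*, the large subunit, had 144, 207, 188 and 212 against 141, 123 and 142 CPM, at 0.47 ± 0.13 (adjusted p = 0.048). Of the words of *Rrm2*, 15.4% occur in other transcripts, including a processed pseudogene.

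The thymidine branch was not called by edgeR. *Tyms*, thymidylate synthase, lay on the other side of 0 at -0.28 ± 0.14 (adjusted p = 0.21), with 27.5, 25.6, 19.3 and 20.3 CPM in wild-type testes and 26.1, 31.3 and 27.2 CPM in *Meioc*-null testes. *Tk1*, thymidine kinase, was at 0.68 ± 0.21 (adjusted p = 0.065, and 0.021 in DESeq2), and *Dut*, which removes dUTP, at 0.31 ± 0.10 (adjusted p = 0.071) with groups that did not overlap. *Ung*, which removes uracil from DNA, was at -0.05 ± 0.11, with 31.4, 37.9, 35.3 and 36.1 against 41.1, 36.4 and 31.9 CPM. The uncalled genes *Tyms*, *Cdt1*, *Rfc1*, *Pold2* and *Ung* are the 5 of the set with a negative log2 fold change.

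Further genes of the pathway, listed by function beside the set, were counted in the same fit. Of 31, 9 were called with a higher level in wild type (29.0%) and 1 with a lower level, with a median log2 fold change of 0.23. The replicative helicase itself, MCM2 to MCM7, had 1 of 6 genes called, *Mcm5* at 0.96 ± 0.15, while the others lay between 0.07 and 0.38. Among 15 other fork and firing factors 6 were called higher, with *Asf1b*, a histone chaperone that hands histones to chromatin assembly factor 1, largest at 1.19 ± 0.21. Among 10 other genes of nucleotide metabolism 2 were called higher, and *Dctd*, dCMP deaminase, was called lower at -0.64 ± 0.13.

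**Figure D5:**
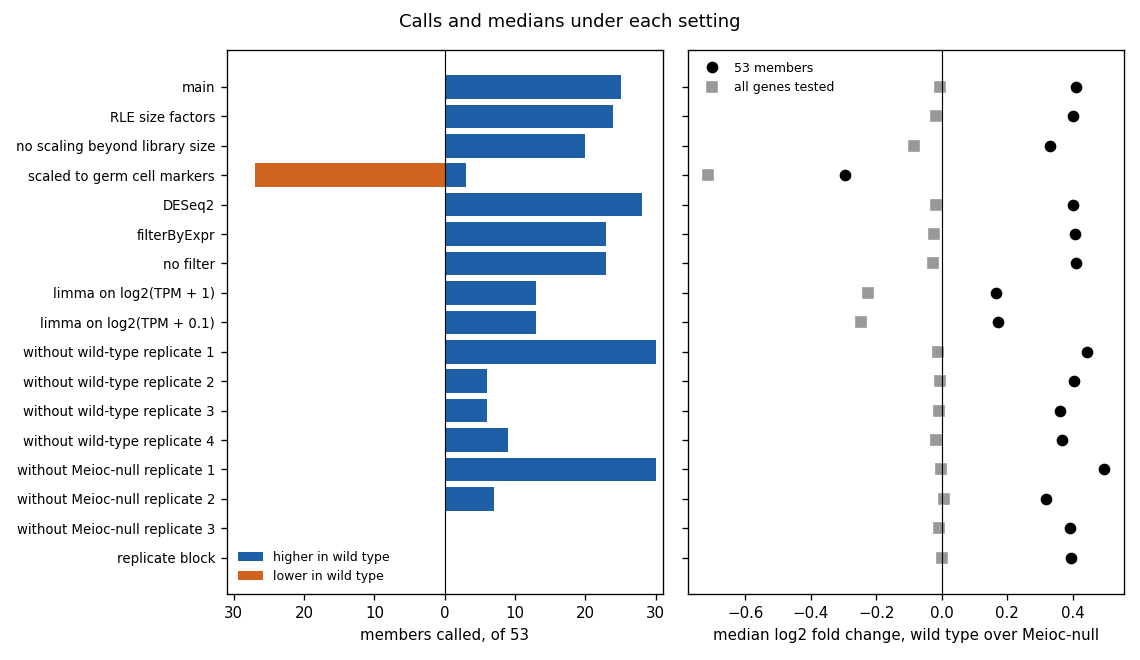
Left, the number of the 53 genes called higher (right of 0) and lower (left of 0) in wild type under each setting. Right, the median log2 fold change of the 53 genes (circles) and of all genes tested (squares): the 53 genes lie above all genes in every setting, and scaling to germ cell markers moves both below 0.

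Scaling sets where 0 lies. With libraries scaled to 5 germ cell markers, 3 of the 53 genes were called higher (*Dscc1*, *Prim1* and *Rrm2*) and 27 lower. Of all 13630 genes tested, 11643 were called under this scaling, 1.46% of them higher. The median of the 53 was -0.30 where that of all genes was -0.72. The gap between the median of the 53 and that of all genes was 0.42 under either scaling. A change of library factors moves all genes by about the same amount, so this gap could hardly change. *Sycp3* and *Tex101*, 2 of the 5 markers, were themselves called higher in wild type by over 1 on the log2 scale. With limma on log2(TPM + 1) the median of all genes was -0.23, 13 of the 53 were called higher and 0 lower, and the median of the 53 was 0.17. Of all genes called, 70.0% were higher in wild type under TMM scaling, 47.3% with no scaling beyond library size, 17.4% on log2(TPM + 1), 17.7% on log2(TPM + 0.1) and 1.46% under germ cell scaling.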

How the data were processed

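Bulk RNA-seq of whole testes was grouped by the genotype in the labels. The authors trimmed reads with cutadapt 1.8 and quantified GENCODE Basic vM15 transcripts with kallisto 0.44.0, with bias correction and strand. They deposited, for protein-coding transcripts, estimated counts and TPM, the latter rescaled to the same total in each library. Here both were summed by gene through Ensembl identifiers (GENCODE vM21, GRCm38); 119 of 43139 transcripts, with at most 0.282% of counts, had no match and were left out. Estimated counts were rounded and tested with edgeR 4.0.16 (R 4.3.3), TMM, without covariates, and the fit was tested on simulated data. The standard error is the log2 fold change over the root of F. TPM served for the filter, for levels between genes, for transcript shares and for the limma alternatives. Alternatives used DESeq2 1.42.0 and limma 3.58.1, other scalings and filters, a replicate block and each library left out. A count of 3 corresponds to 0.151 to 0.237 CPM, counting error only. Any 2 libraries differed by at least 7.49 times counting noise.

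The genes and lists were chosen with earlier results of these data known. Every listed gene may be named. Library values are given for *Meioc* and, in each step, for the 2 called genes with the largest log2 fold change and the gene nearest 0, and of other lists the largest called change in each direction is named, except 1 gene that is not reported here. *Kit*, *Mki67*, *Ccnb1*, *Sycp3*, *Dazl*, *Mael*, *Ddx4*, *Id4* and the late germ cell markers were named after their values were seen. *Chtf8*, which has 2 overlapping gene models, was left out of the pathway lists. Python 3 scripts counted promoter letters and the 31-base words that a gene shares with other GENCODE vM21 transcripts.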

Additional observations from a re-analysis of the deposited data

How the results depend on the processing

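The count of 25 genes called higher and the median of 0.41 kept their direction with RLE factors, no scaling beyond library size, DESeq2 and both other filters, where 20 to 28 genes were called. DESeq2 called 2331 genes in all, against 1513. On log2(TPM + 1) and log2(TPM + 0.1), 13 genes were called in each, the medians were 0.17 and 0.17, and 2522 and 2506 genes were called in all. Leaving out each library gave 0 to 30 genes called higher, medians from 0.32 to 0.50 and 131 to 2172 genes called in all. Without 1 library the spread rests on 6 samples.

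Scaled to germ cell markers, where 11643 of the 13630 genes tested were called, most of them lower, 3 of the 53 were called higher and 27 lower and the median was -0.30. Of the genes called in either fit, the log2 fold changes that turned were in origin recognition -0.49 (*Orc2*), -0.50 (*Orc3*), -0.58 (*Orc4*), -0.59 (*Orc5*) and -0.34 (*Orc6*), and in licensing -0.42 (*Cdc6*). In helicase activation they were -0.23 (*Cdc7*), -0.46 (*Dbf4*), -0.54 (*Gins4*) and -0.68 (*Recql4*), and in priming -0.50 (*Pola1*), -0.24 (*Pola2*) and -0.25 (*Prim2*). Among polymerases they were -0.24 (*Pold3*), -0.49 (*Pole2*) and -0.62 (*Pole3*), and among clamp loaders -0.38 (*Rfc2*), -0.27 (*Rfc3*), -0.064 (*Rfc4*), -0.46 (*Rfc5*) and -0.054 (*Chtf18*). The others were -0.59 (*Rpa1*), -0.34 (*Rpa2*), -0.31 (*Fen1*), -0.58 (*Dna2*), -0.28 (*Timeless*), -0.031 (*Clspn*), -0.41 (*Chaf1a*), -0.25 (*Rrm1*) and -0.39 (*Dut*). Of these 30, 12 were called in the TMM fit and 22 were called lower here. Another 5, called in neither fit, also turned, to -0.21 (*Gmnn*), -0.30 (*Chaf1b*), -0.27 (*Rpa3*), -0.030 (*Tk1*) and -0.46 (*Wdhd1*). The cause was not tested.

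The labels do not say whether the replicate numbers pair the samples. Deviations of same-numbered libraries from their group means correlated at -0.21 to -0.04 over 3 pairs, and those of the other pairs at -0.08 to 0.19. So few pairs cannot decide whether the numbers mark a pairing. With the number as a block, edgeR called 0 of the 53 genes and 109 in all, 33 of the 53 were higher at an unadjusted p under 0.05, and the median was 0.39. The share of all genes at that unadjusted p was not counted with the block. Wild-type replicate 4 has no *Meioc*-null library of its number and adds nothing to the group difference in that fit. Depth limits little here, since the lowest value of the 53 genes in a library was 5.36 CPM. Reads that match several transcripts or pseudogenes limit *Pcna*, *Rpa3*, *Tyms* and *Rrm2* most.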

Other observations

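Transcript use within the genes was compared as the share of a gene's TPM that each transcript holds. In 22 of the 53 genes 2 or more transcripts reached 10% in a library, 50 transcripts in all, and 25 genes have 1 listed transcript. Shares separated the groups without overlap for 3 of these 50 transcripts. The same count was not made over the transcripts of all genes, so it has no background beside it. *Rfc1*, whose total level overlapped between the groups, had *Rfc1-202* at 45.7 ± 5.80% in wild type (SD, n = 4) and 54.7 ± 2.79% in *Meioc*-null testes (n = 3), and *Rfc1-206* at 51.2 ± 5.29% against 40.6 ± 3.71%. *Timeless-201* held 64.0 ± 2.39% in wild type and 71.5 ± 7.15% in *Meioc*-null testes. Both *Rfc1* shares are parts of the same total, so they are not separate differences. These differences are descriptions without a test.

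Other genes changed share between libraries of 1 group by more than between the groups. *Lig1-201* held 46.6%, 0% and 43.4% of *Lig1* in *Meioc*-null replicates 1 to 3, and *Lig1-211* held 3.74%, 100% and 56.6%. *Fen1-203* held 51.5% in wild-type replicate 1 and 67.6% in *Meioc*-null replicate 1 and was listed at 0 in the other 5 libraries. The division of reads between transcripts of 1 gene is estimated by kallisto. Counts summed by gene do not depend on that division, whereas TPM summed by gene can, where the transcripts differ in length.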
